A study of Mus musculus with 9 samples.

Results

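The Serpin genes encode a superfamily of protease inhibitors, and they were taken here by symbol. A gene was a member if its mouse symbol began with Serpin, a clade letter from a to i and a number, leaving out Serpina3n and symbols marked -ps as pseudogenes. This gave 62 members of the 49585 genes measured. Their levels were compared over 9 RNA-seq libraries of prostate basal cells, flow-sorted from C57BL/6J mice and grown as organoids for 5 days. By their labels, the groups differ in medium only, and they hold 3 libraries each. The BM group had basal medium, which in all groups contained EGF, the BMP antagonist Noggin, A83-01 (a blocker of TGF-β receptor signalling), the ROCK inhibitor Y-27632, B27 supplement and N-acetylcysteine. The R group had BM with R-spondin1, a secreted protein that strengthens Wnt signalling, at 500 ng/ml. The RD7 group had BM with R-spondin1 at 500 ng/ml and dihydrotestosterone (DHT), the potent androgen, at 100 nM. DHT was never given without R-spondin1, and RD7 against R shows what DHT added when R-spondin1 was present. All groups carried the TGF-β receptor inhibitor, and the labels name no animal or sort for a library, so p-values measure the spread between these samples, which may be technical.

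An inhibitory serpin offers a protease a bait loop. When the protease cuts the loop, the serpin changes shape and traps the enzyme in a covalent complex, so each molecule works once. Clade A members are mostly secreted, and many circulate in plasma. Clade B members lack a classical signal peptide and act mainly inside cells, where several guard against lysosomal or granule proteases. A few members inhibit no protease, among them Serpinh1, a collagen chaperone of the endoplasmic reticulum also known as HSP47. Serpinb5, known as maspin, is made by basal cells of the prostate and other glands.

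Levels are given as FPKM, a read count divided by the length of the gene and by the depth of the library, and can therefore be compared between genes. The library with the fewest counted reads was BM 1 (6505859), and the others had 15961444 to 24141017. A gene was tested where at least 3 libraries held 0.5 CPM (reads scaled by the library total alone) or more, and it was called at a limma adjusted p under 0.05 (Benjamini-Hochberg over the 15867 genes tested). Fold is the ratio of group means of FPKM, and log2 fold changes are given ± SE on the log2(FPKM + 0.5) scale, which understates the change of genes near or below 0.5 FPKM. The basal keratin Krt5 stood at a mean of 2600.5 FPKM in BM, 3484 in R and 2397 in RD7. All 18 basal and all 20 luminal markers listed were tested. The summed level of the basal list was 7763 to 8680 FPKM in BM, 10494 to 11032 in R and 8967 to 9932 in RD7. That of the luminal list was 4957 to 6271, 4358 to 4856 and 5817 to 7070 FPKM, so all groups held markers of both. Of the markers of other cells, the leukocyte gene Ptprc had group means of 0.00215 FPKM or less, the stromal gene Col1a1 of 0.240 or less and the hepatocyte gene Alb of 0.0447 or less. Others on those lists were higher: the stromal gene Dcn had means of 4.79, 21.9 and 76.6 FPKM in BM, R and RD7, and the endothelial gene Esam of 0.242, 2.99 and 3.05. Summed levels of the lists stand beside the members they may touch. In bulk RNA a lower level can come from fewer cells that make a transcript or from less of it per cell, and these cannot be told apart.

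Of the 62 Serpin genes, 23 were tested, 21 stood at 0 in all 9 libraries and 18 had reads in some library but too few for the test. By clade, 10 of 27 members of clade B and 5 of 24 of clade A were tested, with all 3 of clade E and 1 each of clades C, F, G, H and I. The single member of clade D, Serpind1 (heparin cofactor II), was not tested. In the cluster of clade A genes on chromosome 12, 5 of 23 members were tested, in the clade B cluster on chromosome 1, 6 of 12, and in that on chromosome 13, 4 of 15. Clade A genes known for plasma or hormone-binding proteins of the liver were among those without reads. The α1-antitrypsin copies Serpina1a, Serpina1b, Serpina1c and Serpina1d and the corticosteroid-binding globulin gene Serpina6 all stood at 0 in every library. So did the other clade A members Serpina5 (protein C inhibitor), Serpina1f, Serpina3a, Serpina3b, Serpina12 and Serpina16. In clade B, Serpinb13, Serpinb3d, Serpinb1c, Serpinb9c, Serpinb9d, Serpinb9e, Serpinb9g, Serpinb6d and Serpinb6e stood at 0, and in clade I, Serpini2. The 18 with some reads were Serpina10, Serpina1e, Serpina11, Serpina3c, Serpina3f, Serpina3j, Serpina3k, Serpina7, Serpinb12, Serpinb3b, Serpinb3c, Serpinb7, Serpinb9b, Serpinb1b, Serpinb9f, Serpinb6c, Serpind1 and Serpinf2. None of these 18 passed 0.376 FPKM or 0.940 CPM in any library.

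Some of the untested members had reads mainly in 1 group. Serpinb12 had 0, 0 and 1 reads in BM 1 to 3, 15, 6 and 18 in R 1 to 3, and 6, 0 and 8 in RD7 1 to 3. Serpina3k had 6, 2 and 8 reads in RD7 1 to 3 and none in BM or R. These counts are too low for the test and are given as values only.

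A few members held most of the family's RNA. Serpinh1 and Serpinb5 were the highest in BM and R, with means of 75.0 ± 5.85 and 67.1 ± 15.2 FPKM (SD, n = 3) in BM and of 98.8 ± 3.53 and 68.9 ± 7.43 in R. In RD7 the order was turned, with Serpinb5 at 93.8 ± 5.90 and Serpinh1 at 39.2 ± 3.10 FPKM. The BM libraries of the pair overlap, from 68.2 to 78.5 FPKM for Serpinh1 and from 51.4 to 81.7 for Serpinb5, while in R and in RD7 they do not. Serpinb1a, an inhibitor of neutrophil elastase and cathepsin G, followed at 37.3 ± 6.29, 27.6 ± 2.99 and 31.9 ± 3.88 FPKM in BM, R and RD7. Serpinb6a, an intracellular inhibitor of the same type, stood at 14.9 ± 2.99, 16.5 ± 1.49 and 20.3 ± 2.07 FPKM, and Serpine2 (protease nexin-1, a secreted inhibitor of thrombin and plasminogen activators) at 10.5 ± 1.31, 9.50 ± 1.23 and 8.01 ± 0.511. No other tested member had a group mean above that of Serpina3g in BM, 7.21 FPKM.

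**Figure D1:**
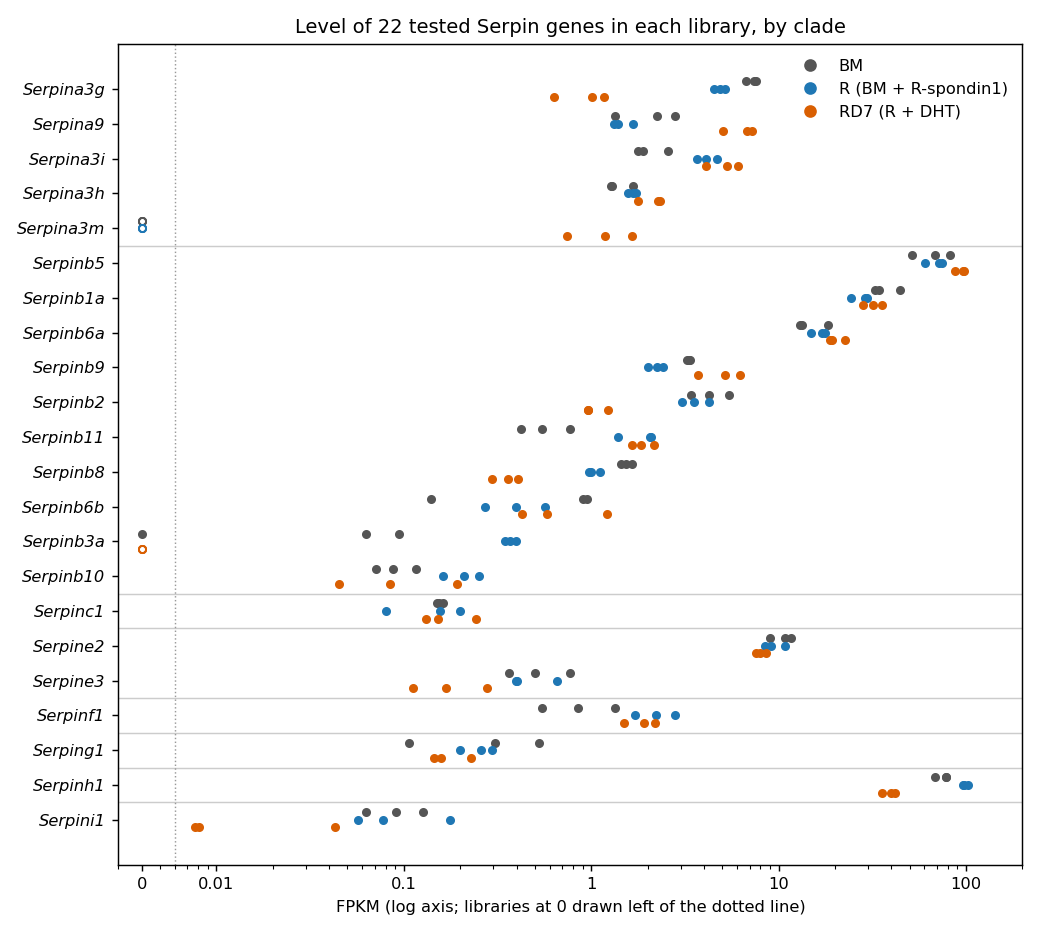
FPKM on a log axis of 22 of the 23 tested Serpin genes in each library, with genes in rows by clade and 3 points for each of BM (grey), R (blue) and RD7 (orange), and libraries at 0 drawn left of the dotted line (open where the whole group was at 0). Serpinh1 and Serpinb5 stand highest, between 35.8 and 103 FPKM in all libraries, and Serpina3m has points above 0 in RD7 only.

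The summed level of all 62 members was close between groups, while its make-up was not. The sum was 212, 231 and 252 FPKM in BM 1 to 3, 252, 262 and 230 in R 1 to 3, and 203, 227 and 237 in RD7 1 to 3, so the groups overlap. Serpinh1 made up 32.7% ± 5.12 of the sum in BM, 39.9% ± 1.85 in R and 17.6% ± 0.864 in RD7. Serpinb5 made up 28.7% ± 4.12, 27.7% ± 1.24 and 42.3% ± 1.30. Together with Serpinb1a, Serpinb6a and Serpine2 they held 88.4% ± 0.293, 89.2% ± 0.401 and 87.0% ± 1.01 of it. These sums and shares are descriptions and were not tested.

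**Figure D2:**
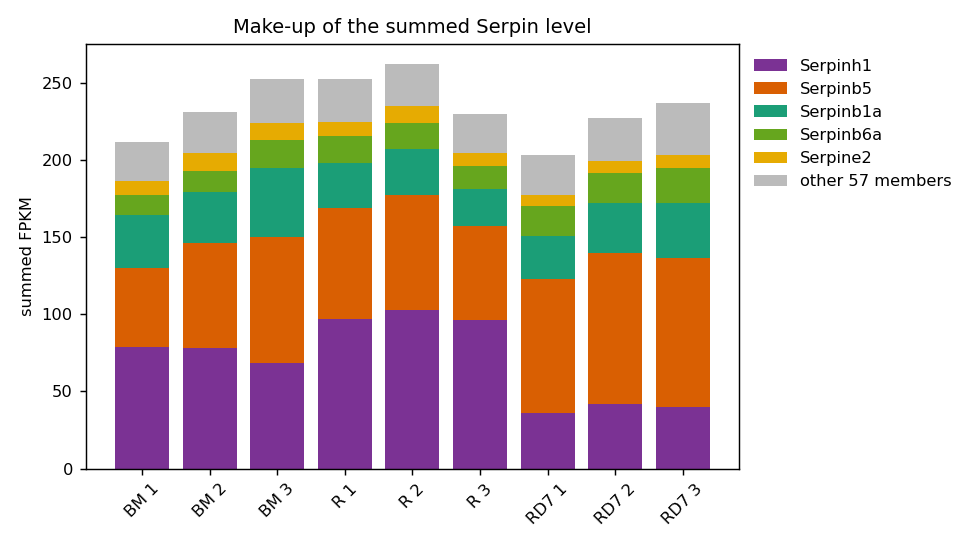
Summed FPKM of the 62 Serpin genes in each library (bars), split into the 5 most abundant members and the other 57. The bars reach between 203 and 262 FPKM, and the Serpinh1 segment is smallest and the Serpinb5 segment largest in the 3 RD7 libraries.

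The Serpin genes were not called all in 1 direction in any comparison that involved DHT. In R against BM, 4 of 23 rose and none fell (17.4%), while limma called 10.0% of all 15867 genes, 4.39% higher and 5.64% lower. Of the 23, 11 had an unadjusted limma p under 0.05, beside 4105 of all 15867 genes. Limma-voom on the recovered reads also called 4 higher and 0 lower, beside 582 and 999 over all genes. The 4 became 2 without R 1 and 1 without R 2, in part because Serpinb3a could not be tested once an R library was left out. In RD7 against R, 3 rose and 6 fell (39.1%), where 31.1% of all genes were called, 13.4% higher and 17.7% lower (2121 and 2816 genes). With median-of-ratios scaling the split was 2551 and 2170 over all genes and 4 and 5 for the Serpin genes. In RD7 against BM, 9 rose and 5 fell (60.9%), where 47.0% of all genes were called, 21.6% higher and 25.4% lower. The 9 became 4 without BM 1, 3 without RD7 3, and 5 without BM 2, R 1 or RD7 2. Once an RD7 library was left out, Serpina3m could not be tested, which is part of the drop. The median log2 fold change of the 23 was -0.03, 0.04 and 0.03 in the 3 comparisons, beside 0.02, -0.09 and -0.07 over all genes. RD7 against BM is the sum of the other comparisons and shares its libraries with them. These counts include Serpinb3a (higher in R against BM, lower in RD7 against R) and Serpina3m (higher in both comparisons of RD7), which passed the filter only through the group where they are high and so had to differ, and nothing is read from the shares. In all, 15 of the 23 were called in at least 1 comparison and 8 in none.

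**Figure D3:**
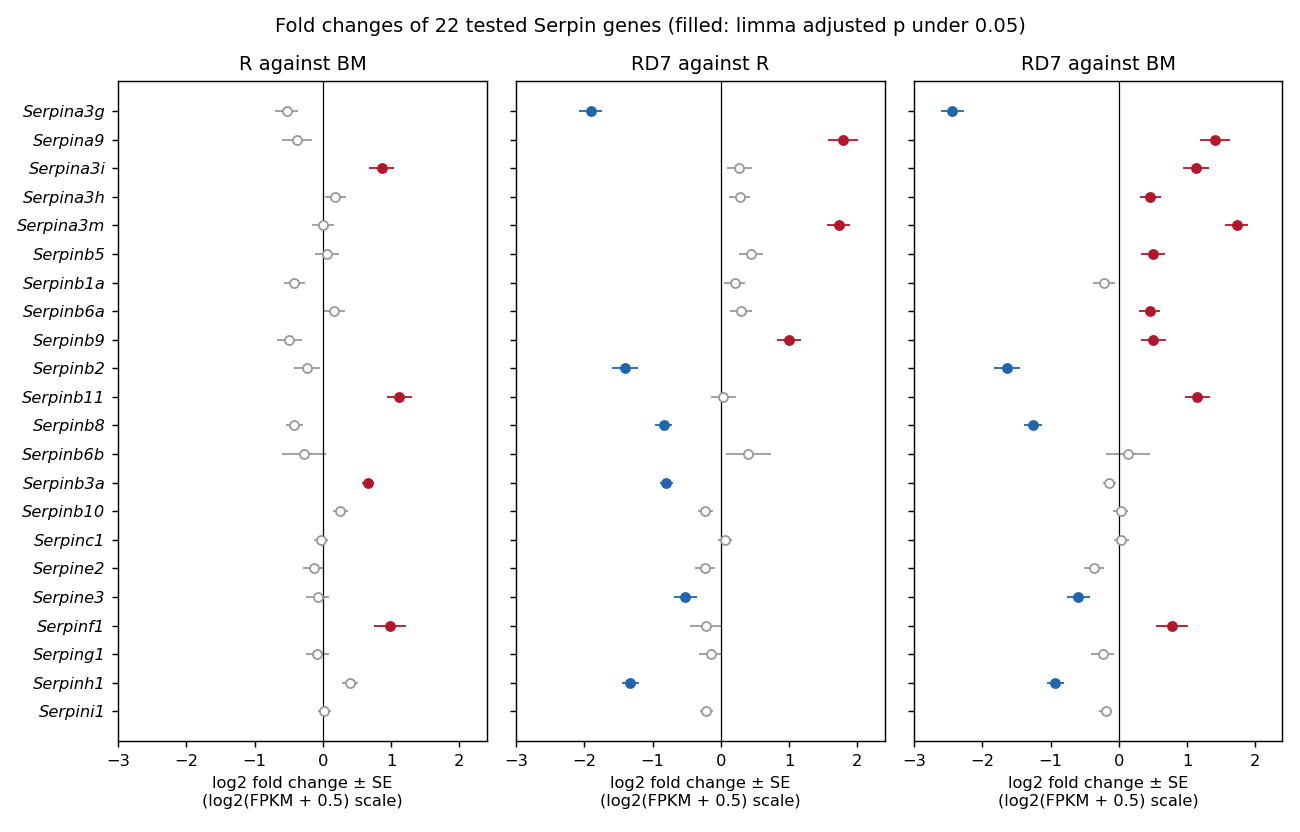
Log2 fold change ± SE of 22 of the 23 tested Serpin genes in each of the 3 comparisons, with genes in rows by clade; filled red points were called higher and filled blue points lower (limma adjusted p under 0.05), and open grey points were not called. Serpina3g lies lowest in RD7 against R (-1.91), and Serpina9 highest (1.79).

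The promoters of members that moved by at least 1 on the log2 scale in RD7 against R are shown where available, so that the sequence before genes that fell with DHT can be read. Serpina9 and Serpina3m also met this rule but had no promoter entry, so none is shown for a member that rose. The promoters of Serpina3g, Serpinb2 and Serpinh1 are in the RefSeq table for GRCm38.p6, each as the 250 bases before the RefSeq start, on the strand of the gene. For Serpina3g that start lies upstream of the GENCODE start given with its values, so the window does not abut it. Capitals mark a TATAAA.
Serpina3g: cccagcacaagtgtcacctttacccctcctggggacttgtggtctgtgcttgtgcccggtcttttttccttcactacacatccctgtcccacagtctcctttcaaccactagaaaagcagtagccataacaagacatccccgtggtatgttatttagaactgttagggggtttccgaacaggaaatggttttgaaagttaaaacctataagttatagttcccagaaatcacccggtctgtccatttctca
Serpinb2: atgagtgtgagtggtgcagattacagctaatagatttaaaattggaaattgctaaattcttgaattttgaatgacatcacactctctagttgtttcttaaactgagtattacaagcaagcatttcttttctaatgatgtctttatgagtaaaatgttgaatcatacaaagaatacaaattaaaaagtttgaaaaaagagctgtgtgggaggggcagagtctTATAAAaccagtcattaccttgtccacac
Serpinh1: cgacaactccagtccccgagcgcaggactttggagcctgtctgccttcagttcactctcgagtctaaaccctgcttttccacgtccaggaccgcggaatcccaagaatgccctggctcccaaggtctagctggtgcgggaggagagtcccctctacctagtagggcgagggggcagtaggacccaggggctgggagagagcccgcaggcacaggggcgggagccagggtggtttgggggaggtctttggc
The Serpina3g window lies at chr12:104235897-104236146 on the plus strand and is 46.0% G or C. The Serpinb2 window lies at chr1:107511173-107511422 on the plus strand, is 32.4% G or C, and has the TATAAA with its leading base at -29 from the start. The Serpinh1 window lies at chr7:99353240-99353489 on the minus strand and is 63.6% G or C. The letters searched for, on both strands, were TGTTCT (part of the androgen response element), CTTTGAT and CTTTGTT (TCF sites), GAANNTTC (heat-shock element), GAAA repeated after NN (interferon response element) and TATAAA, and of these 3 promoters the only match was the TATAAA of Serpinb2. Promoters were found for 17 of the 23 tested members. TGTTCT was in 2 of these (Serpina3i and Serpinb10) and in 16.1% of all 32851 promoters, CTTTGAT in 0 and in 3.21%, and CTTTGTT in 2 (Serpinb11 and Serpinb9) and in 5.03%. GAANNTTC was in 1 (Serpinb5) and in 6.69%, the repeated GAAA in 2 (Serpinb9 and Serpinb6a) and in 2.98%, and TATAAA in 2 (Serpinb3a and Serpinb2) and in 12.4%. A member was counted where any of its promoters held the letters, while the shares over all promoters count each promoter singly, so the 2 are not on the same footing. A match in so short a window is a description and not a binding site.

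Clade B members on chromosome 1 moved in several ways. Serpinb2 (PAI-2; chromosome 1, 107511423 to 107535478), an inhibitor of urokinase, stood at 3.40, 5.41 and 4.28 FPKM in BM 1 to 3, at 4.27, 3.06 and 3.54 in R 1 to 3 and at 1.24, 0.958 and 0.958 in RD7 1 to 3. All RD7 libraries lay below all others, and BM and R overlapped. It fell 3.45-fold from R to RD7 (log2 fold change -1.40 ± 0.19, limma adjusted p = 3.6e-04) and 4.15-fold from BM to RD7. Of its exon bases, 12.4% overlap Serpinb10 on the same strand, whose group means were 0.0921, 0.207 and 0.107 FPKM in BM, R and RD7. Serpinb8 (chromosome 1, 107590006 to 107610484), a clade B gene whose human counterpart inhibits furin, had 1.44, 1.54 and 1.65 FPKM in BM, 0.993, 1.12 and 0.973 in R, and 0.361, 0.295 and 0.407 in RD7. The 3 groups did not overlap and stood in the order BM, R, RD7. The step from R to RD7, a 2.90-fold fall, was called (-0.84 ± 0.13, limma adjusted p = 7.9e-04), while that from BM to R was not (limma adjusted p = 0.070, and 0.046 with a pseudocount of 1). From BM to RD7 the difference was 4.35-fold. Furin itself stood at means of 61.2, 47.5 and 40.6 FPKM and was not called.

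Serpinb11, which lies near them on chromosome 1, rose with R-spondin1, while the nearby Serpinb3a had its few reads mainly in R. Serpinb11 (107361198 to 107380475) had 0.422, 0.550 and 0.770 FPKM in BM, 2.06, 2.09 and 1.39 in R, and 1.66, 1.84 and 2.17 in RD7. Both groups with R-spondin1 lay above BM and overlapped each other. The rise from BM to R was 3.18-fold (1.12 ± 0.18, limma adjusted p = 0.0031), and the difference between RD7 and R was 0.04 ± 0.18 on the log2 scale. Serpinb3a (107045587 to 107052303), a counterpart of the human squamous cell carcinoma antigens that inhibit cysteine and serine proteases, was scarce, with 1, 0 and 2 reads in BM, 9, 14 and 14 in R, and 0 in all RD7 libraries. It passed the filter only through R, so it had to differ. Its pooled reads were 10.2 times as frequent in R as in BM (exact 95% interval 3.22 to 51.6, counting error only), and it was at least 10.9-fold lower in RD7 than in R, set against 3 reads over the RD7 group. Limma called it in both comparisons (adjusted p of 0.0011 and 1.2e-04), but the call against BM was lost when each library was corrected for its trend with gene length (adjusted p = 0.057). As Serpinb3a had to differ, nothing is read from these calls. Of its 50-base sequences, 15.0% also occur in other genes.

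Markers of squamous differentiation were read beside this pair. Of 27 tested, 21 rose in R against BM (77.8% called, beside 10.0% of all genes). In RD7 against R 2 rose and 18 fell (74.1%, beside 31.1%). Those 2 became 0 without R 2, R 3, RD7 2 or RD7 3 and 1 without R 1 or RD7 1. Their summed level was 2293 to 2671 FPKM in BM, 3362 to 3758 in R and 2338 to 2744 in RD7. Serpinb3a was lower in RD7 than in R, as those sums were, and Serpinb11 was not called between RD7 and R. Whether the share of squamous cells has a part in either change was not tested.

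Serpinb5 (chromosome 1, 106861173 to 106883348) stood at 51.4, 68.2 and 81.7 FPKM in BM, 71.9, 74.4 and 60.5 in R, and 87.0, 97.9 and 96.5 in RD7. The RD7 libraries lay above all others, and BM and R overlapped. It was 1.40-fold higher in RD7 than in BM (0.50 ± 0.17, limma adjusted p = 0.036) and 1.36-fold higher than in R, which was not called (0.45 ± 0.17, limma adjusted p = 0.074). Neither side of the threshold was stable: the call against BM was lost in 9 of 19 other settings, with an adjusted p of up to 0.11, and a call against R was gained in 6, with an adjusted p down to 0.020. Leaving out any of BM 1, BM 2, R 1, R 2, RD7 2 or RD7 3 ended the call against BM. Of 18 basal markers, 2 rose and 11 fell in RD7 against R (72.2% called, beside 31.1% of all genes). The 11 became 7 without R 3, RD7 2 or RD7 3 and 7 with no filter, and the 2 became 0 without BM 1, R 2, R 3, RD7 1 or RD7 2 and 1 without R 1 or RD7 3. Of 20 luminal markers, 0 rose and 7 fell in R against BM (35.0% called, beside 10.0% of all genes). In RD7 against R 10 of them rose and 3 fell (65.0%, beside 31.1%). The part of a shift between such cells in the level of Serpinb5 was not tested. The gene of p63 (Trp63), a transcription factor of basal cells, had means of 40.7, 44.3 and 26.5 FPKM in BM, R and RD7.

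On chromosome 13, Serpinb9 (33003250 to 33017957), the inhibitor of granzyme B, had 3.39, 3.25 and 3.34 FPKM in BM, 2.24, 2.02 and 2.42 in R, and 5.20, 3.70 and 6.20 in RD7. The groups did not overlap, with R lowest and RD7 highest. It rose 2.26-fold from R to RD7 (1.00 ± 0.18, limma adjusted p = 0.0023), a call kept in all 19 other settings, and the difference of -0.49 ± 0.18 from BM to R was not called (limma adjusted p = 0.12). Its call in RD7 against BM (limma adjusted p = 0.041) was lost in 11 of the 19 (adjusted p up to 0.14), among them without any library except RD7 2. Of 11 granule proteases of leukocytes, 8 were at 0 in every library, granzyme B among them, and none passed 1 FPKM. Serpinb6a was called in RD7 against BM alone (limma adjusted p = 0.040), a call lost in 9 of 19 settings, among them the same 6 left-out libraries as for Serpinb5 (adjusted p up to 0.13), and 29.3% of its exon bases overlap genes on the opposite strand, from which unstranded reads cannot be told apart. Serpinb1a, Serpinb6b and, on chromosome 1, Serpinb10 were called in no comparison. Serpinb1a was 1.35-fold lower in R than in BM (limma adjusted p = 0.14, and 0.0057 with the length trend removed).

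Clade A held the highest and the lowest fitted log2 fold changes of the tested members in RD7 against R. That scale shrinks scarce genes, and by the ratio of means the scarce Serpinb3a and Serpini1 stood further below their level in R than any clade A member. Serpina3g (Spi2A; chromosome 12, 104236245 to 104241939), an inhibitor of lysosomal cathepsins, had 7.38, 6.67 and 7.58 FPKM in BM, 5.15, 4.84 and 4.5 in R, and 0.637, 1.17 and 1.01 in RD7. The groups did not overlap and stood in the order BM, R, RD7, as for Serpinb8. It fell 5.14-fold from R to RD7 (-1.91 ± 0.17, limma adjusted p = 1.7e-05) and 7.67-fold from BM to RD7 (-2.44 ± 0.17, limma adjusted p = 3.2e-06). The difference from BM to R, -0.53 ± 0.17, was not called (limma adjusted p = 0.078), but was (limma adjusted p of 0.0095 and 0.043) once the length trend was removed or RD7 1 left out.

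Serpina9 (centerin; chromosome 12, 103994743 to 104013755), known from germinal-centre B cells, had 1.34, 2.23 and 2.79 FPKM in BM, 1.40, 1.67 and 1.32 in R, and 5.05, 7.22 and 6.75 in RD7. All RD7 libraries lay above all others, and BM and R overlapped. It rose 4.33-fold from R to RD7 (1.79 ± 0.22, limma adjusted p = 2.2e-04) and stood 2.99-fold above BM (1.41 ± 0.22, limma adjusted p = 0.0010). Of the 12 leukocyte markers, 4 were tested and 8 never passed 1 FPKM, and their summed level was 5.35 to 5.68 FPKM in BM, 6.61 to 7.98 in R and 6.29 to 8.07 in RD7, with none of the 4 called between RD7 and R.

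Other members of the antichymotrypsin-like Serpina3 group, which lie side by side on chromosome 12, did not follow Serpina3g. Serpina3i (104263122 to 104269372) had 2.56, 1.88 and 1.79 FPKM in BM, 3.66, 4.70 and 4.11 in R, and 4.10, 5.30 and 6.07 in RD7. Both groups with R-spondin1 lay above BM and overlapped each other. It rose 2.00-fold from BM to R (0.86 ± 0.19, limma adjusted p = 0.014, and 0.075 without R 2) and stood 2.48-fold above BM in RD7 (1.13 ± 0.19, limma adjusted p = 0.0012). Serpina3h, annotated as a transcribed pseudogene, was called only in RD7 against BM, at means of 2.13 ± 0.30 and 1.41 ± 0.226 FPKM (limma adjusted p = 0.033). That call was lost in 10 of 19 other settings (adjusted p up to 0.80), among them without BM 1, BM 3, R 1, RD7 1 or RD7 3. Between 15.5% and 21.9% of the 50-base sequences of Serpina3g, Serpina3h and Serpina3i occur in other genes, mostly in each other, so part of their reads is uncertain.

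Serpina3m (chromosome 12, 104338486 to 104394257) was listed at 0 in all BM and R libraries and at 0.748, 1.19 and 1.65 FPKM in RD7, from 23, 39 and 48 reads. It passed the filter only through RD7, so it had to differ. It was at least 41.4-fold higher in RD7 than in R, set against 3 reads over the R group (limma log2 fold change 1.73 ± 0.17, adjusted p = 3.7e-05), and nothing is read from the call. Of its 50-base sequences, 19.1% occur in other genes, 16.0% in Serpina3k and 1.1% in Serpina3n. Serpina3n, the relative left out by the rule, had means of 0.0780, 0.0325 and 6.24 FPKM in BM, R and RD7. Of 8 hepatocyte markers, 2 were tested and both were called higher in RD7 against R (Ahsg and Ttr), and 6 never passed 1 FPKM. The summed level was 0.0562 to 0.665 FPKM in BM, 0.138 to 0.288 in R and 1.38 to 4.22 in RD7. With sums so low in BM and R, these 2 may have passed the filter only through RD7, and nothing is read from their calls. Cyp3a11 and Fgb stood at 0. The part of such cells in the rise of Serpina3m was not tested.

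**Figure D4:**
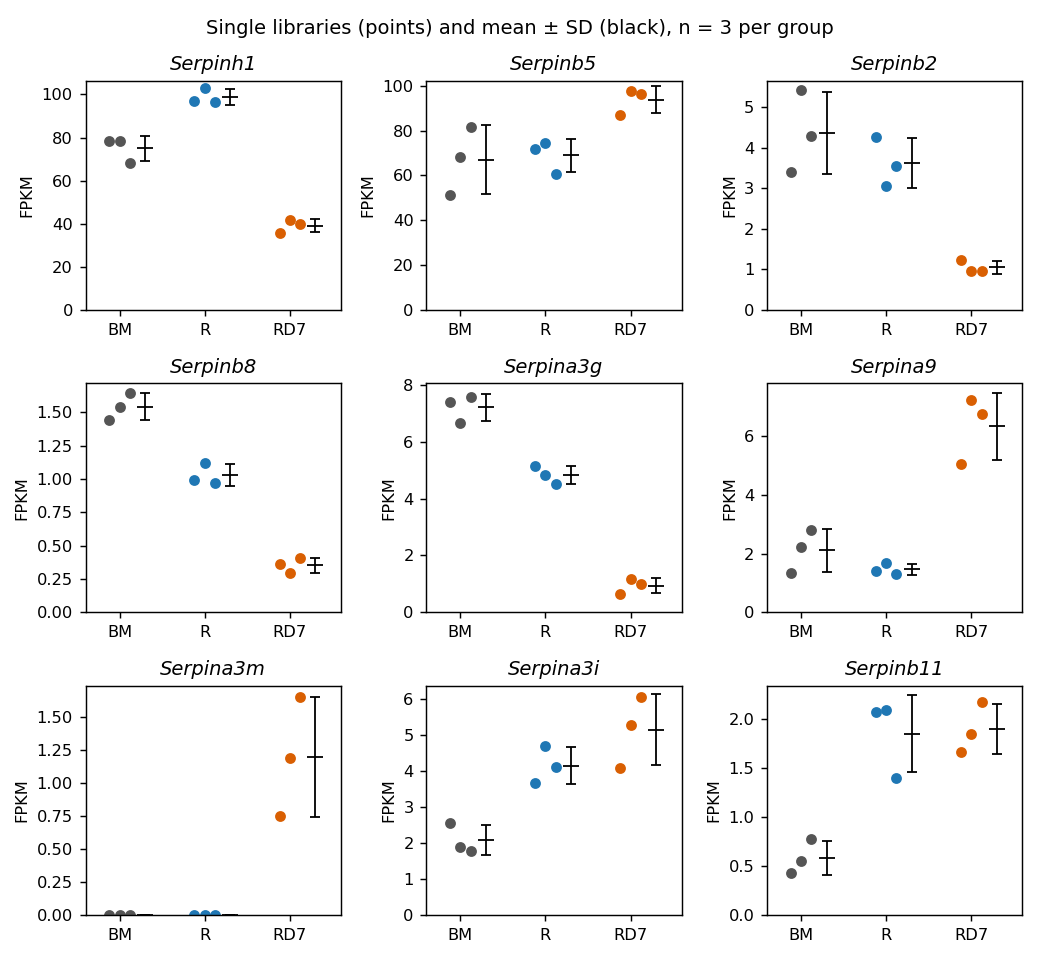
FPKM of 9 Serpin genes in single libraries (points) with mean ± SD (black; n = 3 per group), each panel with its own axis from 0. Serpinh1, Serpinb2, Serpinb8 and Serpina3g have their lowest points in RD7, Serpina9 and Serpina3m their highest, and Serpina3i and Serpinb11 are higher in both groups with R-spondin1.

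Among clades C to I, Serpinh1 (HSP47; chromosome 7, 99345376 to 99353239) had the clearest change. It stood at 78.5, 78.2 and 68.2 FPKM in BM, 97.0, 103 and 96.5 in R, and 35.8, 42.0 and 39.7 in RD7. The groups did not overlap, with R highest and RD7 lowest. It fell 2.52-fold from R to RD7 (-1.33 ± 0.12, limma adjusted p = 2.0e-05) and stood 1.91-fold below BM in RD7 (-0.93 ± 0.12, limma adjusted p = 2.5e-04). The difference from BM to R, 0.40 ± 0.12, was not called (limma adjusted p = 0.065). None of its 50-base sequences occurs in another gene.

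Serpinh1 is needed for folding procollagen, so collagen genes and the enzymes that modify them were read beside it. Of 29 tested, 1 rose and 4 fell in R against BM, 1 rose and 13 fell in RD7 against R (48.3% called, beside 31.1% of all genes, with a median log2 fold change of -0.28 beside -0.09), and 2 rose and 13 fell in RD7 against BM. Between RD7 and R, the number that fell was 4 without R 3 or without RD7 3, 5 without R 1 or without RD7 2, 8 with the length trend removed and 6 with no filter, and the number that rose was 3 without BM 3 and 2 without RD7 2 or RD7 3. Between R and BM, the 4 falls became 2 without BM 1 or without BM 2, and the rise became 0 without BM 2, R 1, R 2 or R 3 and 2 without BM 1 or BM 3. Col18a1 fell from 46.0 ± 8.74 to 16.3 ± 6.11 FPKM, and P4ha1, a prolyl hydroxylase subunit, from 31.6 ± 0.769 to 15.3 ± 0.806 FPKM (limma adjusted p = 1.0e-04). Col17a1, a collagen of hemidesmosomes, fell from 102 ± 16.9 to 56.3 ± 22 FPKM, a call lost without R 1, R 3, RD7 2 or RD7 3 (limma adjusted p up to 0.098). Col4a1, a basement membrane chain, rose from 19.8 ± 5.59 to 50.6 ± 21.2 FPKM. The other type IV chains tested did not follow it: Col4a2 was not called (11.5 ± 3.41 and 15.0 ± 8.07 FPKM). Col4a5 and Col4a6 were called lower, in calls lost in 7 and 8 of 19 other settings. Fibrillar collagen genes, the best known clients of Serpinh1, were scarce, and Col1a1 had no group mean above 0.240 FPKM.

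Serpinf1 (PEDF; chromosome 11, 75409769 to 75422701), a secreted serpin that inhibits no known protease, had 0.847, 0.544 and 1.34 FPKM in BM, 2.82, 2.22 and 1.72 in R, and 1.49, 2.20 and 1.91 in RD7. Both groups with R-spondin1 lay above BM and overlapped each other. It rose 2.48-fold from BM to R (0.98 ± 0.23, limma adjusted p = 0.024), but this call was lost in 7 of 19 other settings, among them those without BM 1, BM 2, R 1 or R 2, with an adjusted p of up to 0.11. Its call in RD7 against BM (2.05-fold, limma adjusted p = 0.022) was lost in 5, among them without BM 1, BM 2, RD7 2 or RD7 3 (adjusted p up to 0.080). The stromal gene Dcn rose in the same comparisons, and Acta2 and Vim fell. The summed level of the 13 mesenchymal markers was 26.0 to 33.3 FPKM in BM, 41.1 to 45.4 in R and 74.7 to 102 in RD7, and 8 of the 13 never passed 1 FPKM. The sum was carried by Dcn, while of the 11 tested 2 rose and 3 fell in R against BM, 1 rose and 6 fell in RD7 against R, and 1 rose and 4 fell in RD7 against BM. These are 45.5%, 63.6% and 45.5% called, beside 10.0%, 31.1% and 47.0% of all genes. The part of such cells in the level of Serpinf1 was not tested.

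In clade E, Serpine2 was not called, with a log2 difference of -0.37 ± 0.15 between RD7 and BM (limma adjusted p = 0.064). Serpine3 had means of 0.545 ± 0.205, 0.487 ± 0.149 and 0.187 ± 0.0849 FPKM. It was called lower in RD7 against R (2.61-fold, limma adjusted p = 0.042), but that call was lost in 12 of 18 other settings, including without any of R 1, R 2, R 3, RD7 2 or RD7 3, with an adjusted p of up to 0.15. Its call in RD7 against BM (2.92-fold, limma adjusted p = 0.018) was lost in 5, among them without BM 1, RD7 2 or RD7 3. Of its exon bases, 24.8% overlap Ints6 on the opposite strand, whose means were 13.3, 10.4 and 7.22 FPKM. Serpini1 (neuroserpin, an inhibitor of tissue-type plasminogen activator) had 6, 11 and 13 reads in BM, 9, 30 and 9 in R, and 1, 6 and 1 in RD7. All RD7 libraries lay below all others in FPKM, and BM and R overlapped. Its pooled reads in RD7 were 0.188 times as frequent as in R (exact 95% interval 0.0769 to 0.401, counting error only). It was not called on the FPKM scale (limma adjusted p = 0.13 against R and 0.13 against BM), while limma-voom on recovered reads called it lower in both comparisons (adjusted p of 0.030 and 0.033). The antithrombin gene Serpinc1 and the C1 inhibitor gene Serping1 had group means of at most 0.314 FPKM and were not called, and 34.4% of the exon bases of Serpinc1 overlap Zbtb37 on the opposite strand.

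Proteases that secreted serpins can meet were read beside them. Of 30 serine proteases of epithelium and of plasminogen activation tested, 11 rose and 3 fell in R against BM (46.7% called, beside 10.0% of all genes). The list includes the urokinase receptor Plaur. In RD7 against R 6 rose and 15 fell (70.0% called, beside 31.1%), and in RD7 against BM 9 rose and 7 fell (53.3%, beside 47.0%). The count of rises in R against BM was 6 without R 1 or without R 2 and 7 without R 3. The plasminogen activator genes fell with DHT together with Serpinb2. Plat (tissue-type) had means of 12.6 ± 1.98, 10.1 ± 0.637 and 2.45 ± 0.102 FPKM in BM, R and RD7 (log2 fold change of -1.85 ± 0.14 from R to RD7, limma adjusted p = 6.9e-06). Plau (urokinase) had 3.84 ± 0.184, 4.30 ± 0.742 and 1.00 ± 0.450 FPKM (-1.71 ± 0.23, limma adjusted p = 3.3e-04), and Plaur 25.9 ± 3.56, 30.8 ± 3.35 and 13.8 ± 1.41 FPKM (-1.13 ± 0.15). These 3 were singled out after their values were seen, because Serpinb2 inhibits urokinase.

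The 3 genes of this list with the highest log2 fold change in R against BM were kallikrein genes, and all 3 fell from R to RD7. Klk13 had means of 0.217, 6.32 and 0.159 FPKM in BM, R and RD7, Klk10 of 0.715, 9.96 and 0.528, and Klk7 of 0.258, 5.25 and 0.388. They encode proteases of squamous epithelium. The membrane protease genes Tmprss2 and Prss8 rose from R to RD7, from 48.6 ± 2.6 to 117 ± 7.85 FPKM and from 18.8 ± 3.11 to 34.7 ± 5.22. Hpn, the membrane protease hepsin, fell from 27.6 ± 3.78 FPKM in BM to 8.94 ± 0.482 in R.

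Of 11 genes tested on a list of cathepsins and legumain, 0 rose and 2 fell in R against BM (18.2% called, beside 10.0% of all genes). In RD7 against R 4 rose and 1 fell (45.5%, beside 31.1%). The 2 falls became 1 when any of the 9 libraries was left out. In RD7 against R the number that rose was 2 without R 1, without R 3 or without RD7 2, and the number that fell was 2 without BM 3. Ctsf rose from 6.77 ± 0.705 FPKM in R to 18.8 ± 2.89 in RD7, and Ctsz from 21.8 ± 1.96 to 53.0 ± 5.89. Ctsc, which activates granule proteases, fell from 158 ± 8.62 to 57.9 ± 1.86 FPKM. Ctsb, a target of Serpina3g, stood at 113 ± 4.45, 125 ± 11 and 119 ± 7.4 FPKM in BM, R and RD7 and was not called.

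Protease inhibitors of other families were also read beside the Serpin genes. Of 22 tested, 2 rose and 6 fell in R against BM (36.4% called, beside 10.0% of all genes). In RD7 against R 10 rose and 3 fell (59.1% called, beside 31.1%, with a median log2 fold change of 0.51 beside -0.09). In RD7 against BM 10 rose and 7 fell (77.3%, beside 47.0%). The rises in RD7 against R numbered 6 without RD7 2 or without RD7 3, and those in R against BM 5 without BM 3. Spink5, an inhibitor of kallikreins, had means of 1.45 ± 0.376, 6.23 ± 0.478 and 72.8 ± 14.5 FPKM. Wfdc3 averaged 0.0165 FPKM in R, against 5.47 ± 0.871 in RD7. Its level in R was very low, and it could be tested in only 16 of the 19 other settings. Wfdc3 may therefore have passed the filter only through RD7, in which case it had to differ. The 10 rises in RD7 against R include Wfdc3, and nothing is read from its call. The metalloproteinase inhibitor gene Timp2 fell from 93.0 ± 11.4 FPKM in BM to 27.3 ± 0.617 in R and stood at 58.0 ± 2.88 in RD7.

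**Figure D5:**
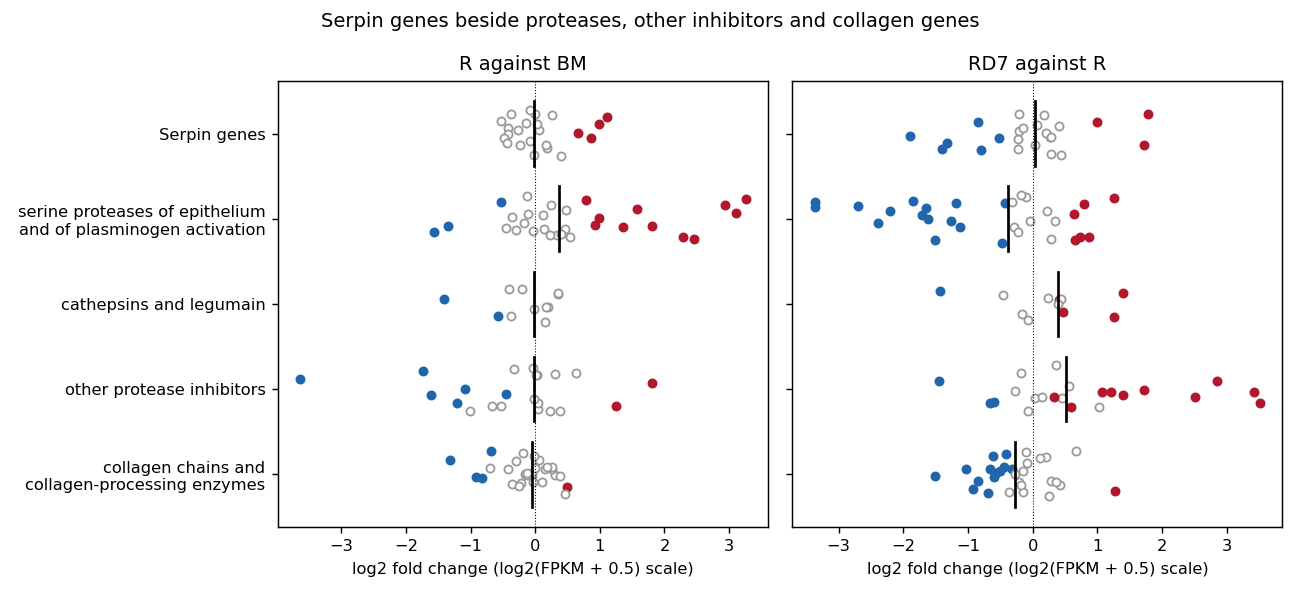
Log2 fold change of each tested gene in R against BM and RD7 against R for the Serpin genes and 4 lists of proteases, other inhibitors and collagen genes (filled red: called higher; filled blue: called lower; open: not called), with the median of each list as a black bar and random vertical offsets. The Serpin median is -0.03 and 0.04, with members on both sides of 0, while that of the other inhibitors is 0.51 in RD7 against R.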

How the data were processed

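The authors deposited FPKM values per gene and library. Per the submitters' processing notes, the build was GRCm38 and the tools were STAR 2.6.1a, CASAVA 1.9, edgeR 3.24.1 and featureCounts, with no role stated for any. The annotation release and strand setting are not given in the sources used here. Polyadenylated RNA was amplified with a SMART-Seq kit, which marks neither strand nor molecule, per the labels' protocols, so intervals and floors (3 reads) cover counting error only. Groups were taken from the sample titles.

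Symbols, gene coordinates and merged exon lengths came from GENCODE M21 (GRCm38), and 99.5% of identifiers had a symbol. FPKM multiplied by exon length and depth gave whole numbers of reads (tolerance 0.01) for 22975 of the 26813 genes with reads. The remaining 3838 needed a fitted length, Serpinb1a, Serpinb6b, Serpinb9b and Serpinb1b among them. Recovered reads made up 99.988% or more of every library. The filter was 0.5 CPM in at least 3 libraries.

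The main test was limma 3.58.1 (R 4.3.3) on log2(FPKM + 0.5), fitted to all 9 libraries with 1 mean per group (6 residual degrees of freedom), trend and robust empirical Bayes, two-sided, adjusted by Benjamini-Hochberg over 15867 genes. The fit was tested on simulated data. Alternatives were pseudocounts of 0.1 and 1, no filter, a filter at 2 CPM, median-of-ratios scaling, limma-voom on recovered reads, neither trend nor robust settings, the replicate number as a block, a length trend removed, only the 2 groups compared, and each library left out. Members were named with all libraries where a called log2 fold change was at least 1 or a group mean at least 50 FPKM, and others were added for their role. In each list the 3 highest and 3 lowest called genes could be named, and others named were chosen after their values were seen. Overlap of exons and of 50-base sequences with other genes was computed from the annotation and its transcripts. Tables and plots used Python 3.11.15, pandas 2.3.3, numpy 2.4.6, scipy 1.17.1 and matplotlib 3.10.9. Values of 1 tested member are not reported here. The members and lists were chosen with earlier results of these data known.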

Additional observations from a re-analysis of the deposited data

How the results depend on the processing

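Of 27 calls of Serpin genes in the 3 comparisons, 17 were kept in every one of the 19 other settings in which the gene could be tested, 10 were lost in some, and none reversed. The 17 include Serpinb3a in RD7 against R and Serpina3m in both comparisons of RD7, which had to differ. Each of these genes could be tested in only 15 of the 19, and not without a library of the group where it was high. Some counts with an R or RD7 library left out are lower in part for that reason. Of 42 differences that were not called, 12 gained a call in some setting. In R against BM, the 4 genes called higher became between 1 (without R 2) and 4 when a library was left out, with 2 without R 1. None was called lower, against 1 with a pseudocount of 1 (Serpinb8), 2 with the length trend removed (Serpina3g and Serpinb1a) and, when a library was left out, 0 to 1 (Serpina3g without RD7 1). In RD7 against BM, the 9 called higher became 5 with only the 2 groups compared and 5 with the replicate block. With no filter 5 were called higher, not all of them among the 9, as members below the main filter were then also tested. When a library was left out, the genes called higher numbered 3 (without RD7 3) to 8, with 4 without BM 1 and 5 without BM 2, R 1 or RD7 2. The counts of RD7 against R (3 higher, 6 lower) and the 5 lower in RD7 against BM stayed within 1.5 times in all settings. Median-of-ratios scaling moved the split between higher and lower in RD7 against R, as given with the counts, and turned the direction of no Serpin gene tested. The cause of these shifts was not tested. With the replicate block, 6 Serpin calls were lost and none gained. Same-numbered libraries of different groups deviated together in 2 of 9 pairs (correlations of -0.521 to 0.272, over 0.1 in 2). Differently numbered libraries did so in 9 of 18 pairs (-0.578 to 0.578). Deviations from the mean of 3 libraries sum to 0, so these values cannot tell whether a number stands for a shared animal or sort. Depth limits the 18 members with few reads and the members below 0.5 FPKM.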
